A study of Mus musculus with 8 samples.

Results

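The MYC and MAX network was examined as 8 genes, chosen by symbol: the activators Myc and Mycn, the shared partner Max, and the repressors Mnt, Mxd1, Mxd3, Mxd4 and Mxi1. They were 8 of 23284 genes listed, and all 8 were among the 11198 genes tested, for which FPKM averaged 1 or more across all libraries. The study sequenced RNA of naive CD4 T cells and of cultured Th1, Th2 and Th17 effectors, 2 libraries for each of these 4 groups. All cells came from DO11.10 Tg mice, which carry a transgenic T cell receptor for a peptide of ovalbumin (OVA). The naive cells were sorted from spleen as CD44low CD62Lhi CD4+ cells, and received no culture. All effector cells were cultured for 6 days with OVA peptide presented by irradiated splenocytes depleted of T cells, so culture, antigen and time were shared by the 3 subsets and absent from the naive cells. Th1 cultures received IL-2 (30 U/ml), IL-12 (100 U/ml) and anti-IL-4 antibody (1 µg/ml), while Th2 cultures received IL-2 (30 U/ml), IL-4 (100 U/ml) and anti-IFN-γ antibody (10 µg/ml). To Th17 cultures were added IL-1β, IL-6 and IL-23 (10 ng/ml each), along with anti-IL-4 and anti-IFN-γ antibodies (10 µg/ml each). How many mice each library came from is not stated in the sources used here, so the spread between libraries of a group may be partly technical.

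MYC and N-MYC are transcription factors of the basic helix-loop-helix leucine zipper family, which bind the DNA motif called the E-box as dimers with MAX and raise transcription of genes for growth, metabolism and division. MNT and the MXD proteins, of which MXI1 is one, compete for MAX and for the same motif and recruit SIN3 and histone deacetylase complexes that lower transcription. In T cells, antigen stimulation induces Myc, and the growth and metabolic change that precede division depend on it.

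The libraries were checked before the genes were compared. The deposited value is FPKM, which scales a gene's fragments for transcript length and library depth, so levels of different genes are compared here per length. The confidence interval beside each FPKM implied 14463466 to 21058286 fragments a library, fewest in the naive cells, and 7 to 10327 fragments for each member in each library other than Mycn in naive cells, at 0. Those fragment numbers reflect counting error only. Cd4 (187 to 373 FPKM) and Cd3e (196 to 351 FPKM) were high in all 8 libraries, and each subset carried markers of its own: Tbx21 was at 45.1 and 50.7 FPKM in Th1, Gata3 at 127 and 133 in Th2, and the cytokine gene Il17a at 347 and 335 in Th17. Markers of other cells were low but not equal, except Cd8b1, which was not low in naive libraries. Summed FPKM of 4 B cell markers was 6.37 and 8.28 in naive, 2.15 and 3 in Th1, 10.5 and 11.4 in Th17, and 6.80 and 9.33 in Th2 libraries. For 8 myeloid and dendritic cell markers the sums were 18.5 and 19.9, 12.0 and 13.2, 23.6 and 25.2, and 28.5 and 33.5 in the same order. The sum of 4 CD8 T and NK cell markers was 54.9 and 93.6 in naive libraries and at most 13.2 in effector libraries. Most of the naive sum was Cd8b1, at 52.8 and 90.5 FPKM, with Cd8a at 1.77 and 2.94. Ncr1 was at 0 in every effector library. In the replicate 1 library of each effector subset 4 neutrophil precursor markers summed to 7.98 to 9.17 FPKM, against at most 0.952 in any replicate 2 library. The part of these other cells in the results on the members was not tested.

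Sequences around E-boxes are shown for members and for MYC targets described further on, since the network is defined by binding to this motif. The motif searched was CACGTG, which reads the same on both strands. In the RefSeq promoter sequences of GRCm38.p6, covering 250 bases before to 50 bases after each start, 7 of the 8 members were matched, Myc not being among them. Of these, 3 held the motif (42.9%; Max, Mnt and Mxd4), against 1629 of 17637 genes with a promoter (9.24%), 12.3% of the tested genes with a promoter, and 2349 of 32851 promoters (7.15%). Of 41 matched genes in a list of MYC activated targets 12 held it (29.3%), and of 9 in a list of MYC repressed targets 2 did (22.2%). Windows are shown only for motifs before the start, which leaves out Max, whose match did not lie wholly before it. Of 5 MYC targets fixed for naming, Ldha and Cdk4 held the motif, and Odc1, Cad and Ncl did not. The capitals mark the E-box, and 30 bases are shown on each side unless the start site came first. The Mnt window lies at chr11:74830771-74830836 on the + strand, the motif 117 bases before the start, and the Mxd4 window at chr5:34187894-34187959 on the - strand, the motif 213 bases before the start. The windows of Ldha, encoding the lactate dehydrogenase A subunit, lie at chr7:46845629-46845694 and chr7:46845726-46845791 on the + strand, 139 and 42 bases before the start. The windows of Cdk4, encoding a kinase of the G1 phase, lie at chr10:127063333-127063398 and chr10:127063494-127063534 on the + strand, 166 and 5 bases before the start, and 2 further motifs between them, 112 and 92 bases before the start, are not shown.
Mnt: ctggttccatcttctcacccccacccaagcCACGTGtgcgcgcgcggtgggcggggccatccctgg
Mxd4: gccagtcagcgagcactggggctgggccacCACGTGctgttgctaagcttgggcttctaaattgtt
Ldha, distal: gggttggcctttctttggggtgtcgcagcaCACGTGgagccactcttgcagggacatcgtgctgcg
Ldha, proximal: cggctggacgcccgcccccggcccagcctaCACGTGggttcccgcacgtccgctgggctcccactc
Cdk4, distal: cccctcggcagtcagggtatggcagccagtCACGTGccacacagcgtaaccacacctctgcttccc
Cdk4, proximal: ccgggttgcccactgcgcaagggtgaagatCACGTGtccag
A motif match is a description of the letters and no binding was measured. The 3 members with the motif were also the 3 that were higher than in naive cells in none of the subsets, which was noticed after the values were seen and was not tested.

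In each effector subset 5 of the 8 members were higher than in naive cells, and they were Myc, Mycn, Mxd1, Mxd3 and Mxi1 in all 3 subsets. Both activators and 3 of the 5 repressors thus rose together, while Max fell in all 3 subsets. Mean FPKM in naive cells was 0 for Mycn and 0.469 for Mxd3, under the filter of 1. These genes passed it through the effector libraries alone, which required a higher level in at least 1 subset. In Th1 cells 5 members were higher and 3 lower, where 33.8% of all genes tested were higher and 33.5% lower. For Th2 the counts were 5 higher and 1 lower, beside 31.8% and 38.7% of all genes, and for Th17 they were 5 and 2, beside 37.5% and 29.8%. With a replicate block, the Th2 count became 5 higher and 2 lower, Mxd4 being the gene added, beside 34.5% and 42.1% of all genes. The median log2(FPKM + 1) difference of the 8 members was 2.65, 1.34 and 2.18 in Th1, Th2 and Th17, and that of all genes tested was -0.01, -0.11 and 0.08. The 3 comparisons share the naive libraries, so they are not independent of each other. In bulk RNA, fewer cells expressing a gene and less of its RNA per cell cannot be told apart.

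**Figure D1:**
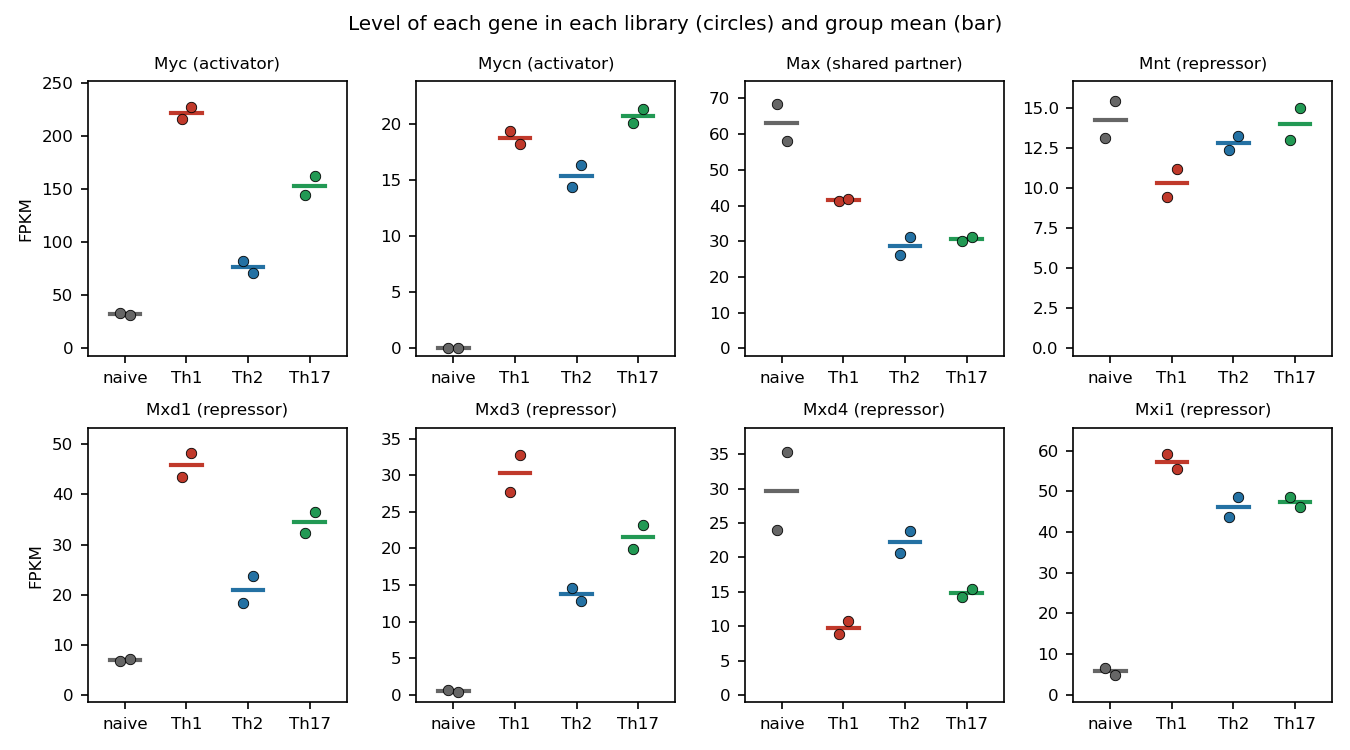
FPKM of each of the 8 genes (vertical axis, a separate scale starting at or just below 0 for each gene) in naive, Th1, Th2 and Th17 cells, with circles for the 2 libraries of a group and a bar for their mean. Myc, Mycn, Mxd1, Mxd3 and Mxi1 were higher in all 6 effector libraries than in both naive libraries, and Max was lower.

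Myc (mm10 chr15:61985341-61990361, + strand) encodes the main MYC protein of lymphocytes. Its FPKM was 33.5 and 31.4 in naive, 216 and 227 in Th1, 145 and 162 in Th17, and 82.6 and 70.8 in Th2 libraries. No groups overlapped, and the order was Th1, Th17, Th2 and naive. Mean FPKM was 6.82-fold higher in Th1 than in naive cells, 4.72-fold in Th17 and 2.36-fold in Th2, with log2(FPKM + 1) differences of 2.73, 2.20 and 1.21 (standard error 0.12; adjusted p = 1.91e-06, 4.54e-06 and 8.1e-05, limma). The order among the subsets was tested as well. Myc was 2.89-fold higher in Th1 than in Th2 (log2 difference 1.52, adjusted p = 9.45e-05) and 2.00-fold higher in Th17 than in Th2 (0.99, adjusted p = 0.000877). Th1 and Th17 were neighbours in this order and differed less, by 0.53 (adjusted p = 0.0165, limma). That last call was lost without Th1 replicate 1, Th1 replicate 2 or Th17 replicate 1 (adjusted p = 0.0624, 0.0928 and 0.0888), and the adjusted p over all alternatives was 0.00567 to 0.0928.

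Mycn (mm10 chr12:12936093-12941836, - strand) encodes N-MYC, the paralogue best known from embryonic and neural tissue. It was listed at 0 in both naive libraries and had an FPKM of 19.4 and 18.2 in Th1, 20.1 and 21.4 in Th17, and 14.4 and 16.3 in Th2. Every effector library therefore held Mycn RNA, with 1053 to 1553 implied fragments, and the subsets did not overlap. In Th1, Th2 and Th17 the log2(FPKM + 1) differences from naive cells were 4.31, 4.03 and 4.44 (adjusted p = 2.07e-07, 1.89e-07 and 1.75e-07, limma), and since the naive value is 0 their size depends on the pseudocount. The subsets differed little beside Myc. Th17 exceeded Th2 by 0.41 (adjusted p = 0.0131), a call lost with median scaling, quantile normalization, or without Th2 replicate 1 or Th17 replicate 2 (adjusted p = 0.0935, 0.0781, 0.0584 and 0.087). Th1 and Th2, 0.28 apart, were on either side of the threshold without and with the replicate block (adjusted p = 0.0519 and 0.0387), and Th1 and Th17 differed by -0.14 (adjusted p = 0.359). In FPKM, Mycn made up 7.41% and 8.26% of the summed activators in the Th1 libraries, 11.7% and 12.2% in Th17, and 14.9% and 18.7% in Th2.

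Max (mm10 chr12:76937269-76962248, - strand), the dimer partner that activators and repressors share, moved against the activators between naive and effector cells. Among the effector subsets Max, like Myc, was highest in Th1. Its FPKM was 68.4 and 58.1 in naive, 41.4 and 41.7 in Th1, 29.9 and 31.3 in Th17, and 26.3 and 31.2 in Th2 libraries. Both naive libraries lay above all effector libraries and both Th1 libraries above the other effector libraries, while Th2 and Th17 overlapped. Max fell by 0.59 in Th1, 1.11 in Th2 and 1.02 in Th17 on the log2(FPKM + 1) scale (standard error 0.12; adjusted p = 0.00405, 0.000157 and 0.000266, limma). Mean FPKM in naive cells was 1.52-, 2.20- and 2.07-fold that in Th1, Th2 and Th17. Th1 was higher than Th2 by 0.52 (adjusted p = 0.0124) and than Th17 by 0.43 (adjusted p = 0.041). The first call was lost without Th1 replicate 1, Th1 replicate 2 or Th2 replicate 1 (adjusted p = 0.0553, 0.0632 and 0.0585), and the second without any 1 of its 4 libraries or with no filter on low values (adjusted p up to 0.16). Th2 and Th17 differed by 0.09 (adjusted p = 0.56), and the sign of that difference turned with median scaling.

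**Figure D2:**
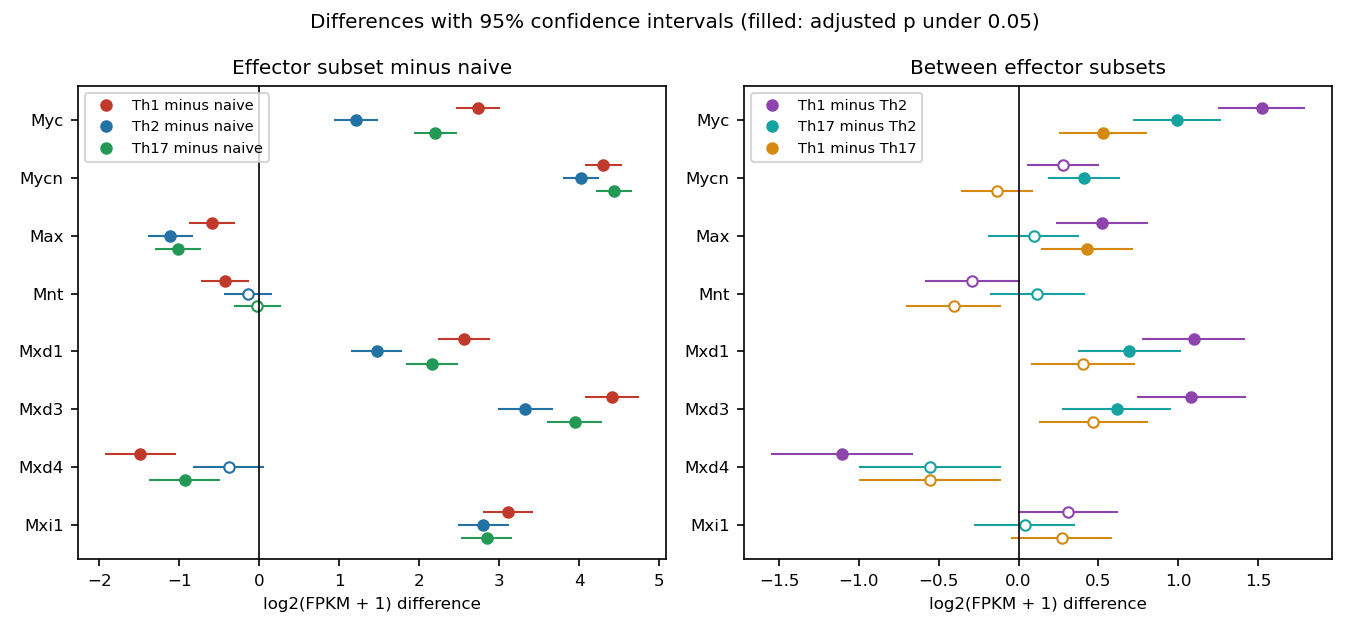
Differences of the 8 genes on the log2(FPKM + 1) scale (horizontal axis) for each effector subset minus naive cells (left) and between effector subsets (right), with 95% confidence intervals from the limma fit; filled points had an adjusted p under 0.05. Mycn and Mxd3 had the largest differences from naive cells (3.33 to 4.44), and Myc the largest between subsets (1.52, Th1 minus Th2).

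Of the repressors, Mxi1, Mxd3 and Mxd1 rose in every subset. Mxi1 (mm10 chr19:53310506-53375810, + strand), also called Mxd2, had an FPKM of 6.60 and 4.96 in naive, 59.1 and 55.4 in Th1, 48.6 and 46.1 in Th17, and 43.6 and 48.5 in Th2 libraries. All effector libraries lay far above both naive libraries, and Th2 and Th17 overlapped. It rose 9.91-fold in Th1, 7.97-fold in Th2 and 8.19-fold in Th17 (log2 differences 3.11, 2.80 and 2.84; adjusted p = 2.04e-06, 2.73e-06 and 2.78e-06, limma). Mxi1 passed the threshold in no comparison between subsets. Those differences were 0.31 for Th1 minus Th2, 0.04 for Th17 minus Th2 and 0.27 for Th1 minus Th17 (adjusted p = 0.102, 0.832 and 0.198), the first passing without either naive library (adjusted p = 0.0477 and 0.0466) and the second turning sign with median scaling.

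Mxd1 (mm10 chr6:86647045-86669159, - strand) encodes MAD1, a repressor known from differentiating blood cells. Its FPKM was 6.71 and 7.10 in naive, 43.5 and 48.2 in Th1, 32.3 and 36.5 in Th17, and 18.4 and 23.6 in Th2 libraries. The groups did not overlap, and their order was that of Myc. The rise was 6.63-, 3.04- and 4.98-fold in Th1, Th2 and Th17 (log2 differences 2.56, 1.47 and 2.16; adjusted p = 5.72e-06, 7.17e-05 and 1.11e-05, limma). Th1 exceeded Th2 by 1.10 (adjusted p = 0.000911) and Th17 exceeded Th2 by 0.69 (adjusted p = 0.00724, but 0.0542 without Th17 replicate 2). Th1 and Th17, 0.40 apart, did not pass (adjusted p = 0.0734), but did with the replicate block (adjusted p = 0.0159), with median scaling and quantile normalization (0.0349 and 0.0445) and without either Th2 library (0.0437 and 0.0435).

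Mxd3 (mm10 chr13:55325168-55329730, - strand) encodes the family member known from dividing cells, being expressed in S phase. Its FPKM was 0.610 and 0.327 in naive, 27.7 and 32.8 in Th1, 20.0 and 23.2 in Th17, and 14.6 and 12.9 in Th2 libraries. Again the groups did not overlap and fell in the order Th1, Th17, Th2 and naive. The naive libraries held 15 and 7 implied fragments, so the folds of 64.5 (Th1), 29.3 (Th2) and 46.0 (Th17) rest on a small count. On the log2(FPKM + 1) scale the differences were 4.41, 3.33 and 3.95 (adjusted p = 6.38e-07, 1.76e-06 and 9.4e-07, limma). Mxd3 was higher in Th1 than in Th2 by 1.08 (adjusted p = 0.00122) and in Th17 than in Th2 by 0.61 (adjusted p = 0.0139), the latter lost with a pseudocount of 0.1 and without Th2 replicate 2 or Th17 replicate 2 (adjusted p = 0.065, 0.0881 and 0.0934). Th1 and Th17, 0.47 apart, did not pass (adjusted p = 0.0553), but did with median scaling and quantile normalization (adjusted p = 0.0239 and 0.0277).

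Mxd4 (mm10 chr5:34176580-34187710, - strand) is known as a repressor of resting and differentiated cells, and here its order was the reverse of that of Myc. Its FPKM was 24.1 and 35.3 in naive, 8.88 and 10.7 in Th1, 14.2 and 15.4 in Th17, and 20.6 and 23.8 in Th2 libraries. The groups did not overlap, although the naive libraries were far apart and the lower one lay next to Th2. Mxd4 fell by 1.49 in Th1 and 0.93 in Th17 (standard error 0.19; adjusted p = 0.000387 and 0.0037, limma), and naive cells had 3.03- and 2.01-fold the mean FPKM. In Th2 the difference was -0.38, with adjusted p = 0.108 and, with the replicate block, 0.0208. It rested on the naive libraries, being -0.65 without naive replicate 1 (adjusted p = 0.0128) and -0.11 without naive replicate 2 (adjusted p = 0.555). Th1 was lower than Th2 by -1.11 (adjusted p = 0.00361). The difference was -0.55 both for Th17 minus Th2 (adjusted p = 0.0504; 0.0085 with the block) and for Th1 minus Th17 (adjusted p = 0.0748; 0.0132 with the block). The first passed in 7 of 17 alternatives, among them median scaling, quantile normalization and a fit of the 2 groups (adjusted p = 0.0198, 0.023 and 0.0248), and the second in 4.

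Mnt (mm10 chr11:74830924-74845725, + strand), the broadly expressed repressor of the family, varied least. Its FPKM was 13.1 and 15.4 in naive, 9.46 and 11.1 in Th1, 13.0 and 15.0 in Th17, and 12.4 and 13.2 in Th2 libraries. Naive, Th2 and Th17 overlapped and both Th1 libraries were lowest. The difference was -0.43 in Th1 (adjusted p = 0.0193, limma; 0.00211 with the replicate block), -0.14 in Th2 (adjusted p = 0.35) and -0.02 in Th17 (adjusted p = 0.885). The Th1 call was lost with no filter, in a fit of only the 2 groups, without naive replicate 2 and without Th1 replicate 1 (adjusted p = 0.0538, 0.0558, 0.106 and 0.118). Between subsets the differences were -0.29 for Th1 minus Th2 and -0.41 for Th1 minus Th17 (adjusted p = 0.104 and 0.056). Both passed with the replicate block (adjusted p = 0.0169 and 0.0082), and the first also with median scaling and quantile normalization (adjusted p = 0.0341 and 0.0328).

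Between the effector subsets, Th1 was highest and Th2 lowest for Myc, Mxd1 and Mxd3, with Th17 between them. For Th1 minus Th2, 4 members were higher (Myc, Max, Mxd1 and Mxd3) and 1 lower (Mxd4), beside 27.4% and 16.9% of all genes tested. For Th17 minus Th2, 4 were higher (Myc, Mycn, Mxd1 and Mxd3) and 0 lower, beside 31.7% and 12.0%. For Th1 minus Th17, 2 were higher (Myc and Max) and 0 lower, beside 9.17% and 16.0%. At an unadjusted p under 0.05 in the same limma fit, 4 members were higher and 1 lower (Mxd4) in Th17 minus Th2, beside 37.7% and 14.3% of all genes, and 4 were higher and 2 lower (Mnt and Mxd4) in Th1 minus Th17, beside 13.2% and 23.1%. With the replicate block 5 were higher and 2 lower for Th1 minus Th2, beside 33.1% and 20.3% of all genes. The block gave 4 and 1 for Th17 minus Th2, beside 38.3% and 15.0%, and 3 and 2 for Th1 minus Th17, beside 12.3% and 20.8%, so the share of all genes called also grew. The median difference of all genes tested was 0.11, 0.18 and -0.08 in these comparisons, and with median scaling 0.03, 0.02 and 0.00, so a general shift of up to 0.18 stands beside the differences of the members. The summed B cell, myeloid and dendritic cell markers were lowest in Th1.

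Because FPKM is per length, the RNA levels of activators and repressors were summed within each library. The activator sum was 33.5 and 31.4 FPKM in naive, 235 and 246 in Th1, 165 and 183 in Th17, and 97.0 and 87.1 in Th2 libraries. The repressor sum was 51.1 and 63.1, 149 and 158, 128 and 136, and 110 and 122 in the same order. Both sums were thus higher in every effector library, and their ratio separated the groups. The ratio of activators to repressors was 0.577 ± 0.113 in naive and 0.799 ± 0.121 in Th2 cells, and 1.57 ± 0.0209 in Th1 and 1.32 ± 0.0422 in Th17 cells (SD, n = 2). It was over 1 in both Th1 and both Th17 libraries and under 1 in both Th2 and both naive libraries. Without Mxd4 among the repressors the naive ratio was 1.19, above that of Th2 (0.989), so the place of naive cells rests on Mxd4. The ratio is one of RNA and no protein was measured.

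**Figure D3:**
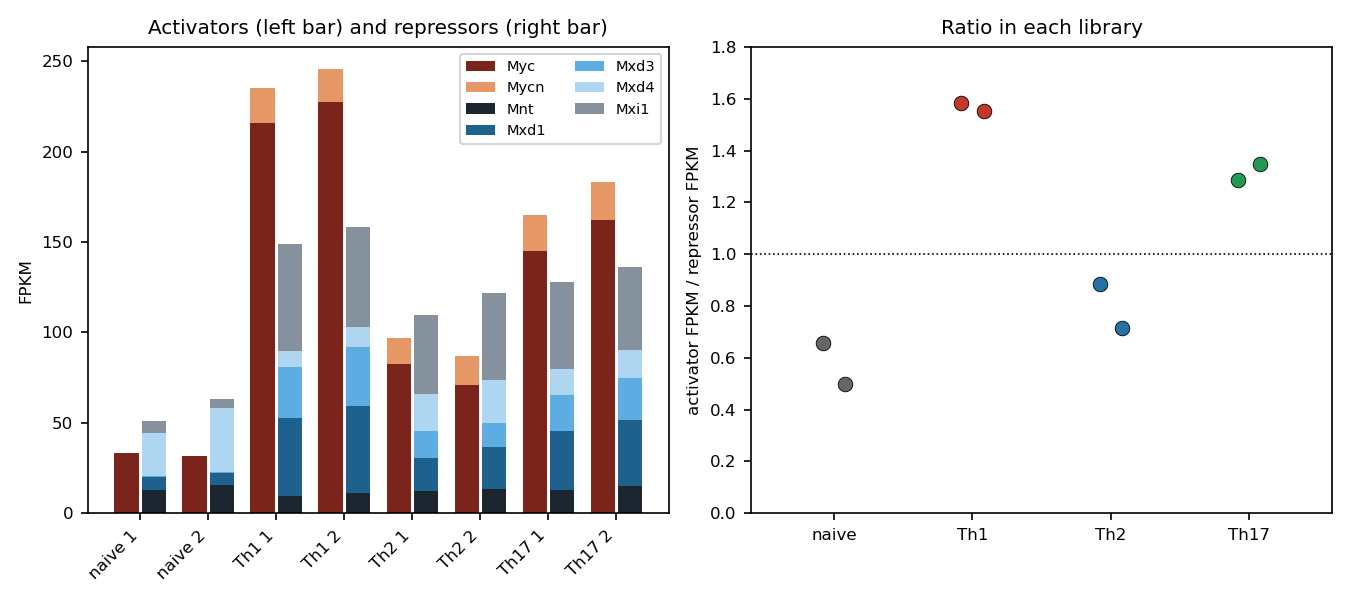
Left, summed FPKM of activators (Myc and Mycn) and of repressors (Mnt, Mxd1, Mxd3, Mxd4 and Mxi1) in each library, stacked by gene. Right, the ratio of the sums in each library, with a dotted line at 1; the Th1 libraries (1.58 and 1.55) and Th17 libraries (1.29 and 1.35) lay above it and the naive (0.657 and 0.498) and Th2 libraries (0.885 and 0.714) below.

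The make-up of the repressor pool differed between naive and effector cells. Mxd4 held 47.1% and 56.0% of repressor FPKM in naive libraries, and 5.97% and 6.78% in Th1, 11.1% and 11.3% in Th17, and 18.8% and 19.5% in Th2. Mxi1 held 12.9% and 7.86% in naive libraries and 33.8% to 39.8% in the 6 effector libraries, where it was the largest share. Mnt went from 25.6% and 24.4% in naive to between 6.36% and 11.3% in effector libraries. Mxd1 held 13.2% and 11.3% in naive libraries and 16.8% to 30.4% in effector libraries. The share of Mxd3 was 1.20% and 0.518% in naive and 10.5% to 20.7% in effector libraries. Max was the member with the most FPKM in both naive libraries, and Myc in all 6 effector libraries. The summed FPKM of activators and repressors was 1.24 and 1.63 times that of Max in naive libraries, 9.28 and 9.68 times in Th1, 7.87 and 6.71 times in Th2 and 9.78 and 10.2 times in Th17.

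The other genes of the extended network were 5: Mycl1, Mga, Mlx, Mlxip and Mlxipl. Mycl1, encoding L-MYC, was at 0 and 0.0133 FPKM in naive and 0.128 and 0.0519 in Th1, and at 2.97 and 2.88 in Th2 and 2.48 and 2.19 in Th17. It was thus higher in Th2 and Th17 (log2 differences 1.96 and 1.73; adjusted p = 5.71e-06 and 1.11e-05, limma), with 0.11 in Th1 (adjusted p = 0.383), and Th1 passed as lower than Th2 (-1.85) and than Th17 (-1.61). Mycl1 passed the filter of mean FPKM through Th2 and Th17 libraries alone, which required a higher level in at least 1 of these subsets. Itgax, a marker of dendritic and myeloid cells, was at 0.537 and 0.689 FPKM in naive and 0.153 and 0.107 in Th1 libraries. It was at 1.65 and 1.59 in Th17 and 2.27 and 2.25 in Th2. Mean FPKM of Lyz2 and Cd68 was likewise lowest in Th1 and highest in Th2. So was the sum of the 8 listed myeloid and dendritic cell markers. The others differed, Csf1r being highest in naive cells, Itgam, Flt3 and Zbtb46 in Th17, and Xcr1 in Th1. The sum was 19.9 and 18.5 FPKM in naive and 12.0 and 13.2 in Th1 libraries, while Mycl1 was at most 0.128 in both groups. The part of such cells in the Mycl1 values was not tested. Mlx, the MAX-like partner of the glucose-sensing MondoA (Mlxip), fell in all 3 subsets as Max did, by 0.54 in Th1, 1.00 in Th2 and 0.86 in Th17 (adjusted p = 0.000965, 4.01e-05 and 8.98e-05). Mlxip also fell in all 3, and Mga, a MAX partner of repressive complexes, in Th1 and Th17 (-0.50 and -0.34; adjusted p = 0.00644 and 0.0324). Mlxipl, at most 0.237 FPKM, was not tested. Txnip, a MondoA target that limits glucose uptake, fell from 654 and 640 FPKM in naive to 230 and 217 in Th1, 202 and 175 in Th17, and 119 and 102 in Th2, while its relative Arrdc4 rose by 0.99, 0.62 and 1.64 in Th1, Th2 and Th17.

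The lists of cofactors are described beside all genes tested, of which 31.8% to 37.5% were higher and 29.8% to 38.7% lower in a subset than in naive cells. Of 12 MYC coactivators 3 were higher and 3 lower in Th1, as in Th17, and 1 and 5 in Th2, with medians of -0.26 (Th1), -0.24 (Th17) and -0.19 (Th2). With the replicate block 6 were lower in Th1 and 5 in Th17. Shares of all genes with the block were not computed for Th1 or Th17 minus naive. The block counts in this paragraph therefore have no such share beside them. For Th2 minus naive, the block raised the share of all genes lower from 38.7% to 42.1%. Ruvbl2, an ATPase of chromatin complexes, rose in all 3 (0.72, 0.56 and 0.82 in Th1, Th2 and Th17, the order kept for the genes that follow), and Kat2a, encoding the acetyltransferase GCN5, fell in Th2 and Th17 (-1.11 and -0.53). Of 13 corepressor genes recruited by MXD and MNT proteins, 5 were higher in each subset and 3, 5 and 3 lower (5 lower in Th1 with the block). Sap30, a subunit of the SIN3 complex, rose most, from 1.38 and 1.34 FPKM in naive to 10.2 to 31.4 in effector libraries, and the SIN3 scaffolds went opposite ways, Sin3a falling (-0.60, -0.37 and -0.48) and Sin3b rising (0.71, 0.53 and 0.44). Of 14 genes for MYC protein turnover, 2 were higher in each subset and 6, 7 and 6 lower, with 9 lower in Th1 under the block. Aurka, encoding a mitotic kinase that also stabilises N-MYC, rose from 1.10 and 1.29 FPKM to 29.8 to 39.5. Usp28 and Usp36, encoding deubiquitinases of MYC, fell by 2.07 to 2.34 and by 1.20 to 1.34, and Ppp2r5a, encoding a regulatory subunit of the phosphatase PP2A, fell from 120 and 110 FPKM to 19.5 to 31.5.

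MYC activated targets, a list of 48 genes, were mixed. In Th1 23 were higher and 8 lower (median 0.29), in Th2 19 and 17 (median 0.03), and in Th17 27 and 2 (median 0.53), beside medians of -0.01, -0.11 and 0.08 over all genes tested. Genes called higher made up 33.8% (Th1), 31.8% (Th2) and 37.5% (Th17) of all those tested. The shares called lower were 33.5%, 38.7% and 29.8%, so the Th2 counts of the targets lay near those of all genes. Targets higher in all 3 subsets numbered 18, for which no matching share of all genes was computed. Odc1, encoding the first enzyme of polyamine synthesis, rose from 5.89 and 5.13 FPKM in naive to 112 and 104 in Th1, 86.3 and 85.9 in Th17, and 98.3 and 88.1 in Th2 (log2 differences 4.07, 3.86 and 3.74 in Th1, Th2 and Th17; adjusted p = 3.04e-07, 2.89e-07 and 3.18e-07, limma). In the same order, among genes of glycolysis, Hk2 rose by 4.59, 4.76 and 4.75, Pkm2 by 3.05, 2.96 and 3.18, and Ldha, whose E-boxes are shown above, by 2.30, 2.21 and 2.40. Cad, of pyrimidine synthesis, rose by 0.73, 1.15 and 1.11, Ncl, encoding nucleolin, by 0.68, 0.72 and 0.75, and Cdk4, also shown above, by 1.23, 0.86 and 1.19. Hk2, Pkm2, Ldha, Cad and Ncl passed the threshold neither for Th1 minus Th2 nor for Th17 minus Th2, their differences lying between -0.42 and 0.23, where those of Myc were 1.52 and 0.99. With the replicate block Cad passed as lower in Th1 than in Th2 (adjusted p = 0.0276). Cdk4 was higher in Th1 than in Th2 by 0.37 (adjusted p = 0.0424).

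The targets that fell in Th2 were other genes. Of the 17 lower in Th2, 15 were not called lower in Th17 (88.2%), where of all 4335 genes lower in Th2 1386 were not (32.0%). They include Bop1 and Utp20, which act in ribosome assembly, and Polr1b, encoding a subunit of RNA polymerase I: the differences in Th1, Th2 and Th17 were -0.53, -1.13 and -0.14 for Bop1, -0.86, -0.95 and -0.36 for Utp20 and -0.65, -1.02 and -0.06 for Polr1b, those in Th17 not passing (adjusted p = 0.377, 0.0901 and 0.681). Compared directly, 28 of the 48 were higher and 2 lower in Th17 than in Th2 (median 0.52, beside 0.18 for all genes). The shares of all genes were 31.7% and 12.0%. In Th1, 23 were higher and 2 lower than in Th2 (median 0.35, beside 0.11 for all genes), beside 27.4% and 16.9% of all genes. Between Th1 and Th17, 1 was higher and 5 lower in Th1 (median -0.15, beside -0.08), beside 9.17% and 16.0% of all genes. With the replicate block the Th1 minus Th17 counts became 5 and 9, beside 12.3% and 20.8%. Those of Th1 minus Th2 became 25 and 4, beside 33.1% and 20.3%.

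**Figure D4:**
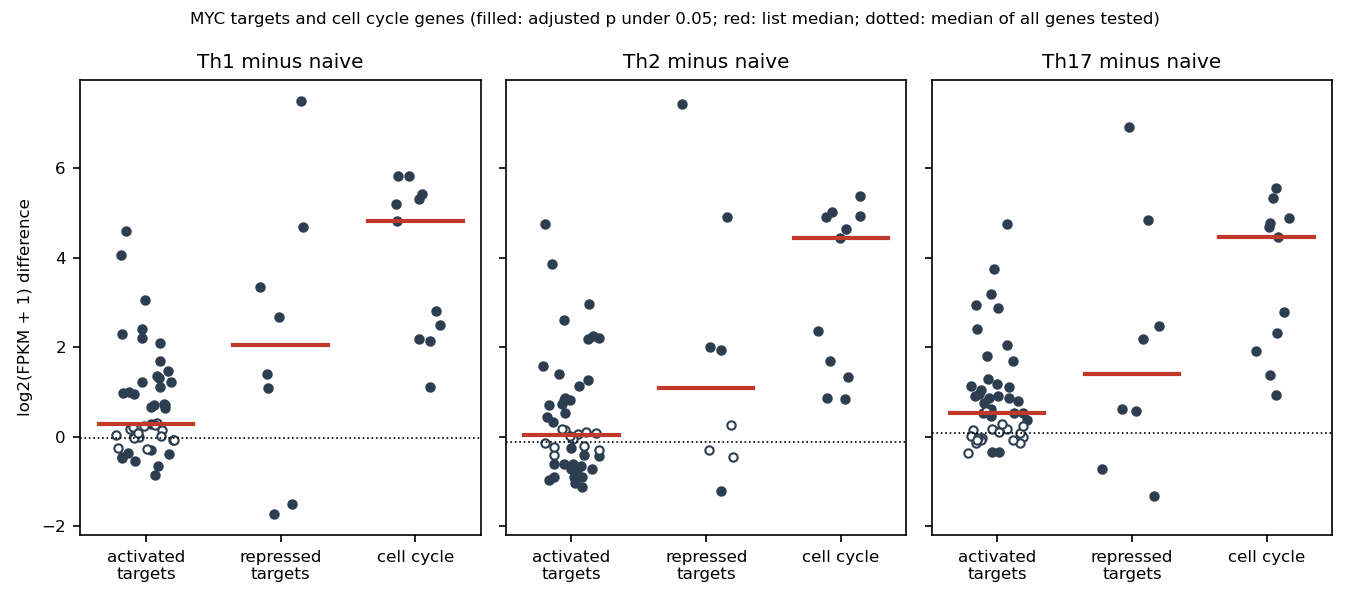
Each point is a gene of the lists of MYC activated targets (48), MYC repressed targets (8) or cell cycle genes (11), with its log2(FPKM + 1) difference of an effector subset from naive cells on the vertical axis; filled points had an adjusted p under 0.05. The red bars, the list medians, were 0.29, 0.03 and 0.53 for activated targets and 4.83, 4.43 and 4.46 for cell cycle genes in Th1, Th2 and Th17; the dotted line is the median of all genes tested.

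Of the 10 listed genes that MYC is known to repress 8 were tested, and 6 were higher and 2 lower in Th1, as in Th17, and 4 and 1 in Th2, beside the same shares of all genes. Cdkn1a, encoding the cell cycle inhibitor p21, rose from 0.102 and 0.360 FPKM to between 133 and 225 in effector libraries, and Ndrg1 rose by 4.69, 4.92 and 4.85 in Th1, Th2 and Th17. Cdkn1b, encoding p27, fell in Th1 and Th17 (-1.73 and -1.33; adjusted p = 0.000326 and 0.00118, limma) but differed by -0.30 in Th2 (adjusted p = 0.243), and was lower in Th1 than in Th2 (-1.43, adjusted p = 0.00193). All 11 cell cycle genes were higher in every subset, Top2a, encoding a topoisomerase of dividing cells, by 5.82, 5.38 and 5.56. Cdkn1a, Cdkn2b, Mki67, Ccna2, Ccnb1, Cdk1 and Tyms had a mean under 1 FPKM in naive cells. They passed the filter through effector libraries alone, which required a higher level in at least 1 subset. RNA of cell division was thus higher in effector cells, as were 5 of the 8 members, and its part in the differences of the members was not tested.

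The genes most like each member over the 8 libraries, by Pearson's r on log2(FPKM + 1), are given as a description, since the 4 groups set most of the pattern. For Myc they were Actg1 (r = 0.998), Clic1 (0.997) and Trp53i11 (0.996), and 330 genes had an r over 0.95. Mycn was most like Guca1a, Anxa2 and Stk32c, Mxi1 like Fkbp1a, Elovl6 and Slc39a8, and Mxd3 like Kif20a, Asf1b and Cdkn3, with 954, 822 and 788 genes over 0.95. Mxd1 was most like Zfp608 (0.997), Il12rb2 (0.996) and Kctd17, with 419 genes over 0.95. Max, Mxd4 and Mnt had fewer such genes. Max had 159 genes over 0.95, led by Tob1, Taf4a and Rsc1a1, Mxd4 had 51, led by Ephb6, Stt3b and BC053749, and Mnt 7, led by Prpf40b (0.976), Man1b1 and Pcid2.

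Reads of some members could be shared with other genes. None of the 50-base stretches of Myc, Mycn, Mnt and Mxd1 transcripts occurred in another gene, and for Max 0.0276% did. Mxd3 shared 2.22% with Prelid1, Mxi1 2.13% with Gm10197 and Mxd4 4.98% with Gm42846, each overlapping the member on the opposite strand. Prelid1 was at 134 and 138 FPKM in naive and 427 to 522 in effector libraries, so the FPKM of Mxd3 in particular is uncertain to the extent that reads of the overlap were counted for both genes. Mxd3 itself was at 0.610 and 0.327 FPKM in the same naive libraries and at 12.9 to 32.8 in effector libraries. The part of shared reads in these values was not tested.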

How the data were processed

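RNA was measured in 8 libraries, 2 for each of naive, Th1, Th2 and Th17 cells, grouped by their labels. The authors aligned 50-base reads to mm10 and deposited FPKM per gene with confidence intervals. The submitters' processing notes name Bowtie 0.12.8, TopHat 1.3.2 and Cufflinks 2.0.2; the annotation is not given in the sources used here. The methods name an unstranded library kit and the labels a stranded one, so use of strand is uncertain. The members and gene lists were chosen with earlier results of these data known.

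FPKM of repeated symbols was summed, and log2(FPKM + 1) of 11198 genes (FPKM averaging 1 or more) was fitted with limma 3.58.1 (R 4.3.3; 4 group means, all 8 libraries, mean-variance trend, two-sided, Benjamini-Hochberg adjustment over all genes tested, threshold 0.05). The fit was tested on simulated data for Th1 minus naive, with 200 of 11198 genes changed and independent errors of the fitted spreads. It recovered 86% of changes of 1 and 97% of changes of 2 in log2, and 4.19% of calls were false. The real data differ, with 33.8% of genes called higher and 33.5% lower and same-numbered libraries deviating together. The simulation therefore does not give their error rates. Differences on this scale understate changes of genes with low FPKM. Any gene with a mean under 1 FPKM in naive cells, such as Mycn, Mxd3 or Hk2, passed the filter through effector libraries alone. For such genes a higher level in at least 1 subset was set by the filter. Implied fragments were computed from the FPKM and its upper limit. With 2 libraries a group an SD is rough.

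The labels number the libraries of each group 1 and 2. Same-numbered libraries deviated together (r = 0.138 to 0.294 over 6 pairs of groups), so the numbers were taken to pair them and a replicate block was fitted as an alternative. Other alternatives were median scaling, quantile normalization, a pseudocount of 0.1, no filter or a filter of 0.1, a fit of 2 groups, no trend, the highest row of a symbol, and each library left out. Genes named were the members, the 5 other network genes, the 3 largest and 3 smallest mean differences of each list, 5 fixed MYC targets, and the 3 genes most like each member, of which some are summarised by counts. A comparison of calls by E-box was left out, since under 80% of genes tested matched a promoter.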

Additional observations from a re-analysis of the deposited data

Results flagged for a closer look

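Effects of culture on the members, each measured against the same naive libraries, differed between subsets in 11 cases by a test of the difference itself (limma, Benjamini-Hochberg adjustment, 2 libraries a group), in log2(FPKM + 1). For Myc these were 1.52 for Th1 minus Th2, 0.99 for Th17 minus Th2 and 0.53 for Th1 minus Th17. Mxd1 and Mxd3 differed between Th1 and Th2 (1.10 and 1.08) and between Th17 and Th2 (0.69 and 0.61). For Max they were 0.52 (Th1 minus Th2) and 0.43 (Th1 minus Th17), for Mycn 0.41 (Th17 minus Th2), and for Mxd4 -1.11 (Th1 minus Th2). These cases came from 8 members in 3 comparisons. Of all genes tested, 27.4% were higher and 16.9% lower for Th1 minus Th2. The shares were 31.7% and 12.0% for Th17 minus Th2, and 9.17% and 16.0% for Th1 minus Th17. Some alternatives lost both Max calls, Myc for Th1 minus Th17, and Mycn, Mxd1 and Mxd3 for Th17 minus Th2. The groups of 2 libraries are too small for a test of a single library that stands apart.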

How the results depend on the processing

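Over 816 values of the 8 members, 756 stayed on the same side of the threshold in the same direction, 23 lost the call, 27 gained one and 10 turned sign. The 10 that turned were of differences not called. With median scaling and quantile normalization, Th17 minus Th2 became -0.0850 and -0.0698 for Max, -0.0551 and -0.0536 for Mnt, and -0.142 and -0.0843 for Mxi1. With each library left out in turn it ran from -0.0257 to 0.213 for Max and from -0.0365 to 0.115 for Mxi1, and Th17 minus naive for Mnt from -0.132 to 0.0870. The cause was not tested.

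Of 8 members, 2 were called in Th1 minus Th17. This became 4 with median scaling, 4 with quantile normalization and 1 with no filter, and 0 to 3 with a library left out. In Th17 minus Th2 the count with a library left out was 1 to 5, against 4. The replicate block raised the Th1 minus Th17 count to 5 and, over the 48 values, changed 7 calls, all gained. With the block 12.3% of all genes tested were higher and 20.8% lower in Th1 minus Th17, against 9.17% and 16.0% without it. Shares of all genes called under the other settings of this paragraph were not computed, so those counts have no such share beside them. MYC activated targets called higher than in naive cells stayed within 1.5 times their count under each alternative run.

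The ratio of activators to repressors was 0.771 in naive, 1.68 in Th1 and 1.47 in Th17 without Mnt, and 1.19, 1.67, 0.989 and 1.48 in naive, Th1, Th2 and Th17 without Mxd4. Mycn and Mxd3 were at the limit of detection in naive cells, so their fold depends on the pseudocount, the Mycn differences reaching 7.27 to 7.70 at 0.1. With 2 libraries a group, a difference that missed the threshold is not shown to be absent.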
